A study of Mus musculus with 6 samples.

Results

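The type I interferon stimulated genes described here are 39 genes whose transcription rises in mouse cells that receive interferon-alpha or interferon-beta. They were taken by name from the table of estimated read counts per gene, and the related Ifi200 cluster was not included. All 39 were among the 17459 genes of that table, and all 39 passed the filter on low counts that left 13490 genes for testing. The lowest count of any of them in any library was 25.

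The libraries came from RNA-seq of microglia, the resident macrophages of the brain, isolated from male C57BL/6J mice aged 8 weeks. The study asked how the transcriptome of adult microglia changes when the microRNA gene Mir137 is lost. The knockout group (cKO) was Mir137 loxP/loxP;Tmem119-CreERT2 and the control group (cWT) was Mir137+/+;Tmem119-CreERT2, with 3 libraries per genotype. Both groups therefore carried the Cre recombinase, which is driven from the microglial gene Tmem119 and is active only after tamoxifen, and tamoxifen was given on 7 consecutive days at 7 to 8 weeks of age. The isolation text names 4 mice, and no source used here says which mice gave which library. Since the libraries may not be separate animals, p-values here speak of library-to-library spread alone, which may be technical. The total estimated count was 16503817 to 17482042 in the cWT libraries and 12068698 to 15212806 in the cKO libraries. In the authors' deposited table Mir137 itself stood at a mean of 0, so the deletion could not be checked in these counts. Levels are given below as CPM, which are counts put on a common library size by the trimmed mean of M-values (TMM).

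Type I interferons bind the receptor Ifnar1/Ifnar2, whose kinases Jak1 and Tyk2 phosphorylate STAT proteins, Stat2 among them. Together with Irf9 they form the complex ISGF3, which binds the interferon-stimulated response element in the promoters of its target genes. The products sense viral nucleic acid, block viral entry, translation or release, and feed back on the pathway, and microglia carry a low level of them without infection.

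The response element is built around GAAA, 2 bases of any kind, GAAA. This core was searched on both strands, overlapping matches included, in the RefSeq promoter windows of GRCm38.p6, which run from 250 bases before to 50 bases after each annotated start. A window was given for 30 of the 39 genes, and 15 of those genes (50%) held at least 1 match, against 3.91% of the 10266 tested genes with a window. The 5 stretches below are shown because they carry matches at promoters whose genes changed in opposite directions in cKO libraries. Each runs from 140 to 30 bases before the start on the gene's own strand, with the matched bases in capitals; TTTC marks a match that reads on the opposite strand.
Isg15 (chr4:156200848-156200958, minus strand): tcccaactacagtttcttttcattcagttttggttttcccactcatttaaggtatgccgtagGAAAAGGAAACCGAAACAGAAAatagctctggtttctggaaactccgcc
Bst2 (chr8:71537502-71537612, minus strand): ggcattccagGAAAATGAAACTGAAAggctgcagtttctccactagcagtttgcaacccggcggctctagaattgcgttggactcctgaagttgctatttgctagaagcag
Ifit1 (chr19:34640749-34640859, plus strand): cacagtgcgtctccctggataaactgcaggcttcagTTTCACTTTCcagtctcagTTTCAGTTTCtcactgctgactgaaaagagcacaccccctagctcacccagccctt
Rsad2 (chr12:26456482-26456592, minus strand): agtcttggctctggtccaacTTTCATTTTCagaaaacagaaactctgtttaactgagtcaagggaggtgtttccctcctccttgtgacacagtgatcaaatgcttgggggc
Oas3 (chr5:120777689-120777799, minus strand): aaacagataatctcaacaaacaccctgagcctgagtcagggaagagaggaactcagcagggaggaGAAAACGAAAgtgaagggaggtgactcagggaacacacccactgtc

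Isg15 held 3 overlapping matches, which began 78, 72 and 66 bases before the start, and Bst2 held 2, at 130 and 124 bases. In the Ifit1 promoter 2 separate matches began at 104 and 85 bases. The Rsad2 match began at 120 bases and the Oas3 match at 75 bases. Isg15, Bst2 and Ifit1 were higher in cKO libraries, whereas Rsad2 and Oas3 were lower. In the fit described below with offsets for length and GC content, Bst2 (0.14) and Oas3 (0.34) were not called, and the Oas3 call also fell away without cWT 1, cWT 2 or cKO 2. Among genes with a window, the core was present in 8 of the 18 that were higher, in 6 of the 9 that were lower and in 1 of the 3 that did not pass the test. A match is a description of these letters and not a measured binding site.

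In cKO against cWT libraries the interferon-stimulated genes did not move as 1 block: 22 of 39 were higher, 11 were lower and 6 did not pass the test (edgeR, adjusted p under 0.05). The largest increases were those of Ifitm1, Ifi27l2a and Isg15, and the largest decreases those of Parp14, Rsad2 and Oas2. These counts stand against a background in which 72.1% of all tested genes were called, 35.6% higher and 36.5% lower, so that a change in itself did not set a gene apart in these libraries. The median log2 fold change of the 39 genes was 0.39, beside -0.02 for all tested genes, and their values ran from -1.44 to 3.88. Called increases reached 2-fold or more for 16 of them, and called decreases for 2. All 3 cKO libraries lay above all 3 cWT libraries for 22 of the genes (36.7% of all tested genes did so) and below them for 13 (37.9%), while the genotypes overlapped for 4. The authors' deposited table gave the same call for all 39, with 22 higher and 11 lower, beside 29.2% and 28.7% of the genes with an adjusted p in that table. Scaled by library size alone, in place of TMM, the median of all tested genes moved to -0.42, that of the 39 genes to -0.01, and 18 of them were called higher and 15 lower. The share of all calls that were higher was then 33.1%, against 49.4% with TMM.

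**Figure D1:**
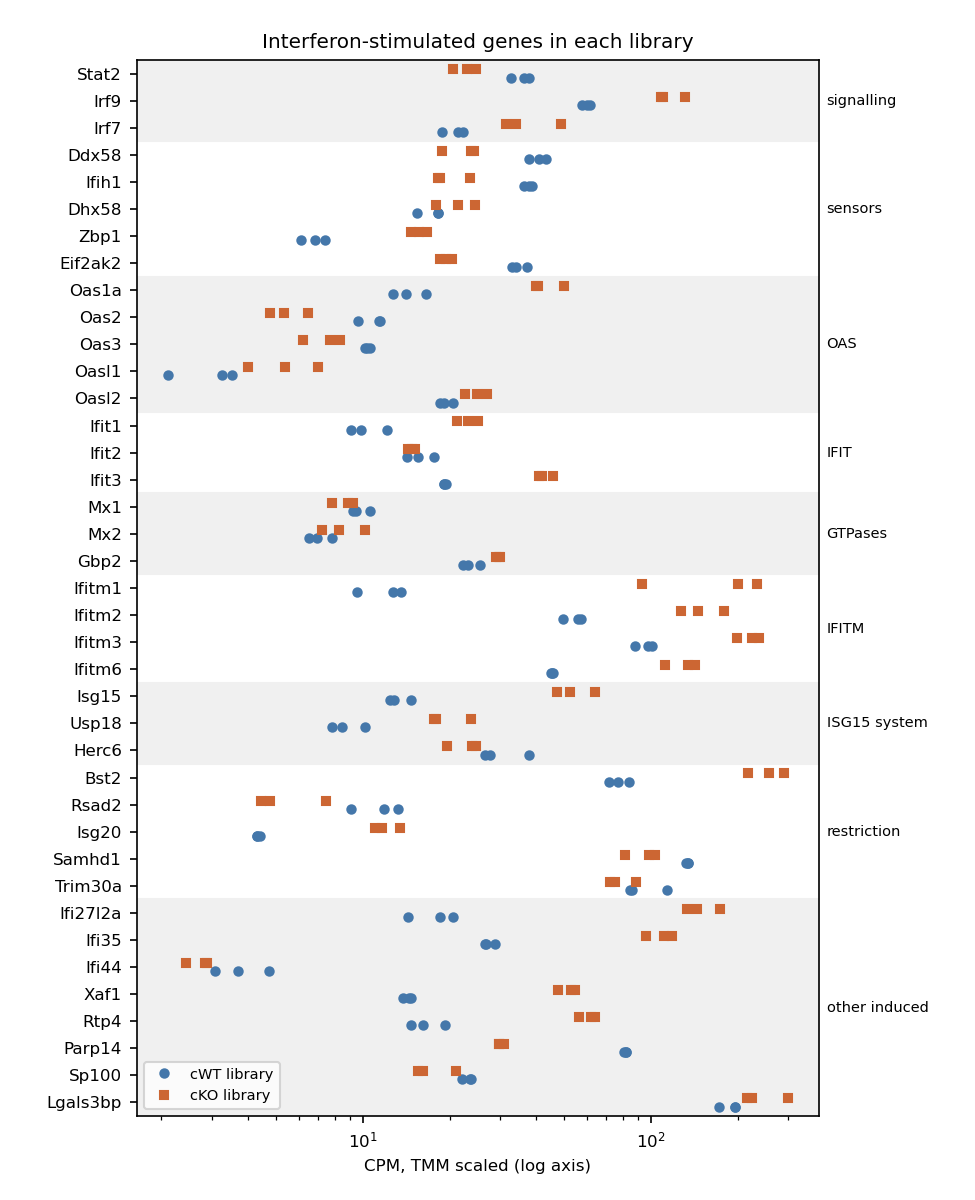
Levels in CPM (TMM scaled, log axis) of the 39 interferon-stimulated genes in each of the 3 cWT (circles) and 3 cKO (squares) libraries, grouped by role. The cKO libraries lie to the right of the cWT libraries for 22 genes and to the left for 13, and the widest gaps are at Ifitm1 and Ifi27l2a.

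The direction of change followed the length of the gene's transcript. Over the 39 genes Spearman's rho between the log2 fold change and the annotated transcript length was -0.88, and over the 12983 tested genes with a length it was -0.72. These are descriptions across genes that share the same 6 libraries. All 13 genes with the shortest transcripts (463 to 1885 bases) were higher in cKO, with a median log2 fold change of 1.59. Of the 13 with transcripts of 1916 to 3123 bases, 9 were higher and 1 lower, with a median of 0.39. Among the 13 longest (3385 to 7417 bases) none was higher and 10 were lower, with a median of -0.64, and the other 3 did not pass the test. Whether this relation reflects the RNA of the cells or the libraries cannot be told apart with these data, since genotype and library set coincide.

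Each gene was therefore set beside the 500 tested genes nearest in transcript length. Of the 39 genes, 28 lay above the median of those neighbours and 11 below, with a median difference of 0.13 on the log2 scale. Using the longest annotated transcript in place of the principal one, an alternative chosen after seeing the data, 18 lay above and the median difference was 0.00. The difference was over 1 for 5 genes, namely Ifitm1 (2.27), Xaf1 (1.68), Rtp4 (1.21), Ifi27l2a (1.20) and Ifit1 (1.05, or 0.86 with the longest transcript), and no gene lay more than 1 below. With the longest transcript Irf9 moved from 0.77 to 1.26, Zbp1 from 0.63 to 1.28 and Irf7 from 0.24 to 0.90. Ifi44 moved from -0.50 to -0.16 and Sp100 from -0.42 to -0.12. With the principal transcript the difference was within 0.25 in either direction for 13 genes. In a second fit, offsets for the length of the principal transcript and for GC content were estimated per library. Then 16 of the genes were higher and 8 lower, with a median of 0.14 beside 0.00 for all genes fitted. Spearman's rho with length was still -0.4 over the 39 genes, and -0.057 over all genes with a length. The 13 shortest then had 8 higher and 2 lower, the 13 of middle length 8 and 2, and the 13 longest 0 and 4. That fit called 56.4% of genes, 29.3% higher and 27.1% lower. Of the 22 genes that were higher without offsets, 16 were higher with them, 4 were not called and Ifitm3 and Ifitm6 were lower. Of the 11 lower genes, 5 were lower with offsets and 6 were not called. Below, an offset value means the log2 fold change of a gene in this second fit.

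**Figure D2:**
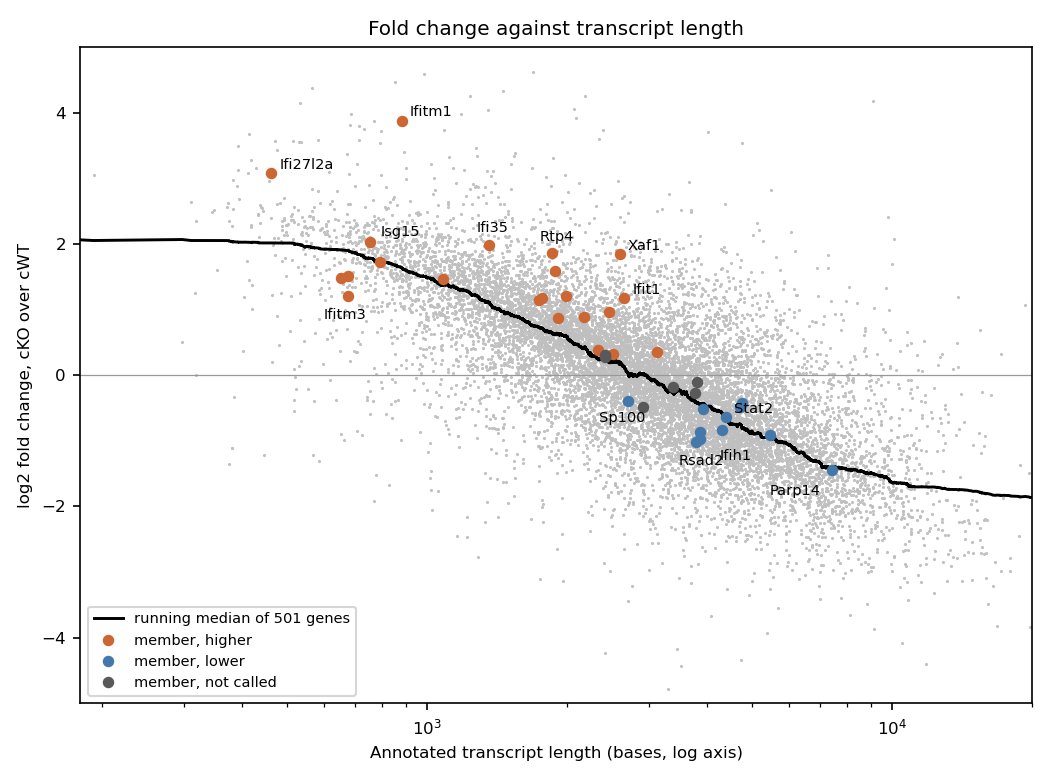
Log2 fold change (cKO over cWT) against annotated transcript length (bases, log axis) for all tested genes with a length (grey), with the interferon-stimulated genes in colour by call and a running median over genes ordered by length (line). The 13 shortest of the interferon-stimulated genes all lie above 0 and the 13 longest all below, while Ifitm1, Xaf1, Rtp4, Ifi27l2a and Ifit1 lie more than 1 above the genes of like length.

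**Figure D3:**
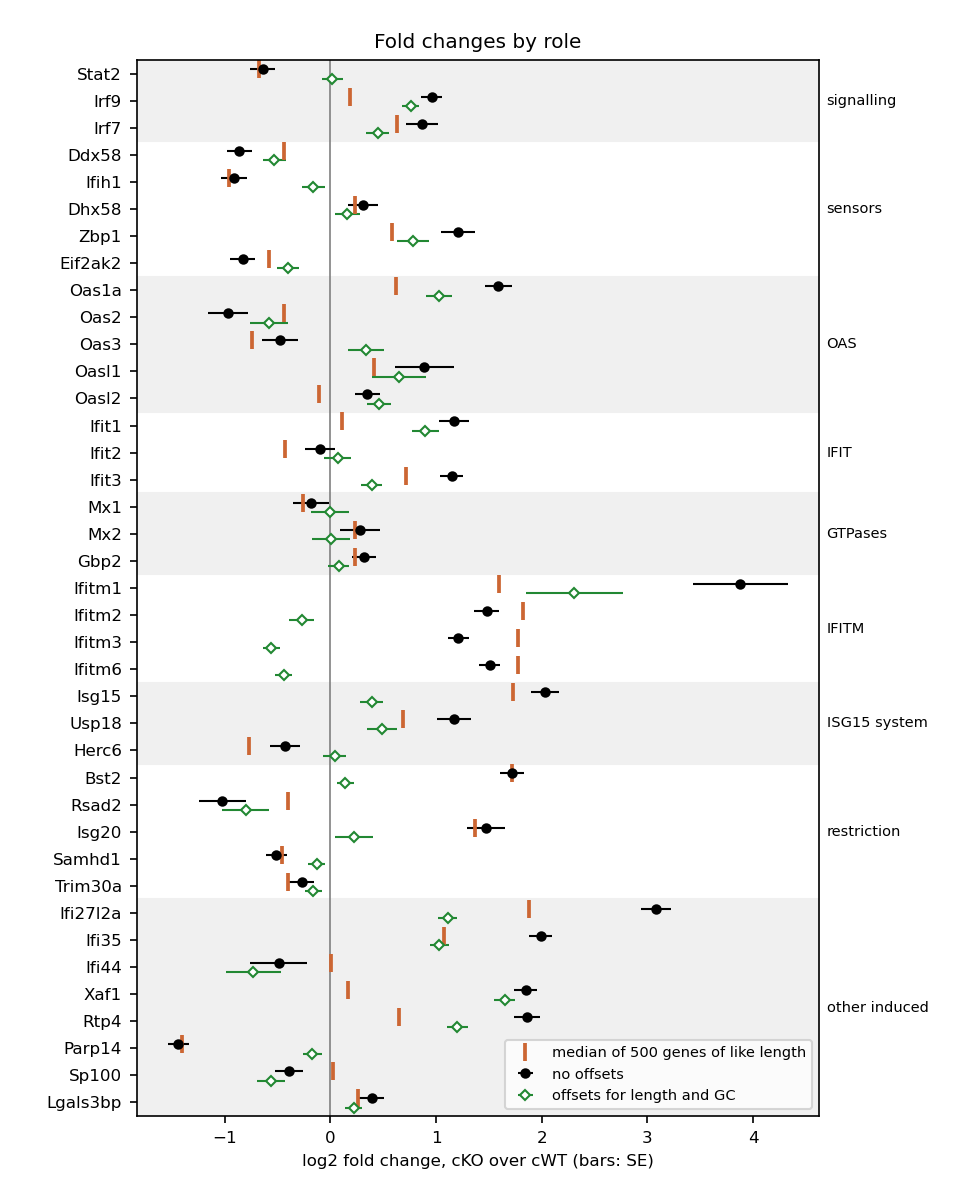
Log2 fold change (cKO over cWT, bars: SE) of each interferon-stimulated gene without (filled) and with (open) the offsets for length and GC content, by role, with a tick at the median of the 500 genes of like length. With offsets Ifitm1, Xaf1, Rtp4, Ifi27l2a, Ifi35 and Oas1a keep values above 1, whereas Ifitm2, Ifitm3 and Ifitm6 change from above 0 to below it.

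Among the signal transducers and transcription factors, Irf9 and Irf7 were higher and Stat2 was lower. Irf9, the DNA-binding subunit of ISGF3, rose from 59.7 ± 1.99 to 116 ± 12.5 CPM (SD, n = 3). On the log2 scale the difference was 0.96 (SE 0.10, adjusted p = 9.11e-08 in edgeR), and the offset value was 0.76. Irf7, the factor that amplifies interferon-alpha transcription, rose by 0.87 (SE 0.15, adjusted p = 4.09e-05) with an offset value of 0.45. Its highest library was cKO 3 at 48.6 CPM, and the other cKO libraries stood at 34.1 and 31.3 CPM. Stat2, a subunit of ISGF3, fell from 35.5 ± 2.67 to 22.8 ± 2.06 CPM (log2 fold change -0.64, adjusted p = 9.57e-05), and with offsets the value was 0.02 (adjusted p = 0.89).

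The sensors of viral nucleic acid moved in both directions, with 3 of 5 lower and 1 higher. Ddx58 encodes RIG-I, the cytosolic receptor for 5'-triphosphate RNA. It had 37.6, 43.1 and 41 CPM in cWT libraries 1 to 3 and 18.8, 23.7 and 24.4 CPM in cKO libraries 1 to 3. The genotypes did not overlap, the log2 difference was -0.86 (SE 0.12, adjusted p = 5.51e-06), and the gene was lower with offsets too (-0.53, adjusted p = 0.000491). Ifih1, which encodes Mda5, the receptor for long double-stranded RNA, had 37.8, 38.6 and 36.4 CPM in cWT and 23.6, 18.3 and 18.5 CPM in cKO libraries. Every cKO library was below every cWT library (-0.91, SE 0.12, adjusted p = 2.8e-06), at a transcript length of 5470 bases where the neighbours had a median of -0.96, and the offset value was -0.16 (adjusted p = 0.23). Eif2ak2, the kinase PKR that halts translation on double-stranded RNA, fell by 0.83 and kept a negative offset value of -0.40 (adjusted p = 0.00204). Zbp1, a sensor of Z-form nucleic acid, was the sensor that rose, from 6.76 ± 0.648 to 15.7 ± 1.01 CPM (log2 fold change 1.21, adjusted p = 1.62e-06; offset value 0.78). Dhx58, the regulator Lgp2, did not pass the test (0.31, adjusted p = 0.0563) but passed it without cKO 1 (0.40, adjusted p = 0.0153).

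The OAS family is named for enzymes that make 2'-5' oligoadenylates, the activators of RNase L, although not all members have this activity. Its members split: Oas1a, Oasl1 and Oasl2 rose while Oas2 and Oas3 fell. Oas1a, Oas2 and Oas3 lie within one cluster on chromosome 5 of GRCm38, between bases 120730333 and 120907521. Oas1a had 16.6, 14.1 and 12.7 CPM in cWT and 39.8, 40.6 and 50 CPM in cKO libraries. The lowest cKO library lay well above the highest cWT library, and the difference was 1.59 on the log2 scale (SE 0.13, adjusted p = 5.78e-09; offset value 1.03, adjusted p = 2.12e-07). Oas2, of the same cluster, had 11.5, 11.4 and 9.66 CPM in cWT and 4.77, 5.31 and 6.45 CPM in cKO libraries. Here every cKO library was lower, by -0.97 (SE 0.19, adjusted p = 0.000142), and the offset value was -0.58 (adjusted p = 0.00832). Oas3 fell by 0.48 (adjusted p = 0.0194) without offsets and had an offset value of 0.34 (adjusted p = 0.0922). Its call was lost without cWT 1, cWT 2 or cKO 2 (adjusted p 0.0515, 0.0505 and 0.088). Oasl1 rose by 0.89 at a low level of 2.95 ± 0.749 to 5.44 ± 1.5 CPM. Oasl2, with 0.35, lost its call without cWT 2 or cWT 3 (adjusted p 0.0569 and 0.0725).

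Of the IFIT proteins, Ifit1 binds viral RNA that lacks host cap methylation. Ifit1 and Ifit3 rose and Ifit2 did not pass the test, although all of them lie within 1 cluster on chromosome 19 (bases 34550694 to 34650009). Ifit1 had 12.1, 9.83 and 9.1 CPM in cWT and 23.2, 21.3 and 25.1 CPM in cKO libraries. The genotypes were well apart, 1.17 on the log2 scale (SE 0.14, adjusted p = 7.86e-07), where genes of its length of 2656 bases had a median of 0.11. Its offset value was 0.90 (adjusted p = 6.85e-06). Ifit3 rose from 19.3 ± 0.169 to 42.8 ± 2.62 CPM (1.15, adjusted p = 3.15e-08), with an offset value of 0.39. Ifit2 stood at 15.8 ± 1.73 CPM in cWT and 14.7 ± 0.467 CPM in cKO, a difference of -0.10 (SE 0.14, adjusted p = 0.533).

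Most of the interferon-induced GTPases did not pass the test. Gbp2, a guanylate-binding protein that also responds to interferon-gamma, was the only 1 of the 3 called (0.32, adjusted p = 0.0183). Its call was lost without cWT 2 or cWT 3 (adjusted p 0.0765 and 0.0951), and its offset value was 0.08. Mx1 had 9.77 ± 0.762 CPM in cWT and 8.63 ± 0.723 CPM in cKO (-0.18, adjusted p = 0.341). Mx2 had 7.08 ± 0.684 and 8.54 ± 1.51 CPM (0.28, adjusted p = 0.201).

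All 4 IFITM genes, membrane proteins that hinder the fusion of viruses with the host cell, rose in cKO libraries without offsets, but with offsets 1 of the 4 was higher and 2 were lower. They lie together on chromosome 7, between bases 140954837 and 141017924. Ifitm1 had 13.6, 12.7 and 9.56 CPM in cWT and 200, 234 and 93.3 CPM in cKO libraries. All cKO libraries were far above cWT, and cKO 3 was the lowest of them by a wide margin, which the SE reflects (log2 fold change 3.88, SE 0.45, adjusted p = 0.00103, a 14.7-fold increase). Without cKO 3 the value was 4.20. It was the only IFITM gene that stayed higher with offsets (2.31, adjusted p = 0.0134). Ifitm3, the most abundant of the 39 genes per kilobase in cWT libraries, had 101, 97.7 and 88.1 CPM in cWT and 225, 237 and 199 CPM in cKO libraries. Every cKO library was above every cWT library (1.21, SE 0.10, adjusted p = 4.09e-09), yet genes of like length had a median of 1.78 and the offset value was -0.56 (adjusted p = 3.2e-06). Ifitm2 had 55.7, 57.2 and 49.7 CPM in cWT and 146, 180 and 127 CPM in cKO libraries. Again the genotypes did not overlap (1.48, SE 0.12, adjusted p = 3.11e-09), and the offset value was -0.27 (adjusted p = 0.0721). Ifitm6 rose by 1.51 (adjusted p = 4.23e-10) without offsets and fell by 0.44 (adjusted p = 0.000107) with them.

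In the ISG15 system, in which the ubiquitin-like protein Isg15 is attached to other proteins by Herc6 and removed by Usp18, the modifier and the protease rose and the ligase fell. Isg15 had 14.7, 12.8 and 12.4 CPM in cWT and 52.5, 47.1 and 64.2 CPM in cKO libraries. The groups were far apart (2.03, SE 0.13, adjusted p = 2.22e-10), although genes of its length of 756 bases had a median of 1.73, and the offset value was 0.39 (adjusted p = 0.00589). Usp18 rose by 1.17 (adjusted p = 3.3e-06; offset value 0.49). Herc6 had 30.6 ± 6.06 CPM in cWT and 22.8 ± 2.82 CPM in cKO libraries, and cWT 1 stood above the rest at 37.6 CPM. Its decrease of -0.43 (SE 0.14, adjusted p = 0.0135) was -0.26 without cWT 1 (adjusted p = 0.122) and -0.31 without cKO 3 (adjusted p = 0.0633), and its offset value was 0.04.

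The other restriction factors were also mixed, with 2 higher, 2 lower and 1 not called. Bst2, the tetherin that holds budding virions at the cell surface, had 83.6, 71.7 and 76.9 CPM in cWT and 257, 217 and 290 CPM in cKO libraries. The increase was 3.29-fold (log2 fold change 1.72, SE 0.11, adjusted p = 1.98e-10), and the difference from genes of like length was 0.00. Rsad2, the antiviral enzyme viperin, had 11.8, 13.2 and 9.1 CPM in cWT and 4.77, 4.43 and 7.44 CPM in cKO libraries. It was lower in each cKO library (-1.02, SE 0.22, adjusted p = 0.000374) and also with offsets (-0.80, adjusted p = 0.00448). Samhd1, which hydrolyses the deoxynucleotides that retroviruses need, had 132, 135 and 134 CPM in cWT and 81.4, 98.6 and 103 CPM in cKO libraries. The decrease of -0.51 (SE 0.10, adjusted p = 0.000187) became -0.13 with offsets (adjusted p = 0.178). Isg20, an exonuclease, rose by 1.47 (adjusted p = 8.12e-07), with an offset value of 0.22 (adjusted p = 0.304). Trim30a had a log2 fold change of -0.27 (adjusted p = 0.0503), and its cWT 1 library, at 114 CPM, stood above the others. It passed the test without cWT 2, cWT 3 or cKO 1 (adjusted p 0.0363, 0.0284 and 0.014).

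Of the 8 other interferon-induced genes, 5 rose and 2 fell, and 3 of the increases were more than 1 above genes of like length. Xaf1, a cell death factor, had 13.8, 14.5 and 14.7 CPM in cWT and 47.7, 54.4 and 52.8 CPM in cKO libraries. Replicates were tight and far apart between genotypes (1.85, SE 0.11, adjusted p = 1.04e-10), and the offset value of 1.65 (adjusted p = 2.88e-11) was close to the value without offsets. Rtp4, a chaperone of receptor trafficking, had 19.3, 16.2 and 14.7 CPM in cWT and 61.8, 56.1 and 64.2 CPM in cKO libraries. The rise was 3.63-fold (1.86, SE 0.12, adjusted p = 2.33e-10; offset value 1.20). Ifi27l2a had 20.5, 18.5 and 14.4 CPM in cWT and 174, 144 and 133 CPM in cKO libraries. It is the gene with the shortest transcript among the 39, at 463 bases, and its log2 difference was 3.08 (SE 0.14, adjusted p = 4.12e-12), with an offset value of 1.11 (adjusted p = 2.85e-09). Ifi35 had 26.5, 28.7 and 26.7 CPM in cWT and 118, 96.1 and 111 CPM in cKO libraries. No libraries overlapped (1.99, SE 0.11, adjusted p = 2.14e-11; offset value 1.03).

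Lgals3bp, a secreted galectin-binding glycoprotein, had 172, 196 and 196 CPM in cWT and 224, 215 and 299 CPM in cKO libraries. The change was small beside those above (0.39, SE 0.12, adjusted p = 0.00665; offset value 0.22), and cKO 3 was the highest library. Parp14, an ADP-ribosyltransferase and the gene with the longest transcript of the 39, at 7417 bases, had 80.8, 82.1 and 82.1 CPM in cWT and 30.8, 29.7 and 29.8 CPM in cKO libraries. It had the largest decrease of the 39 (-1.44, SE 0.10, adjusted p = 2.95e-10), while genes of like length had a median of -1.40 and the offset value was -0.17 (adjusted p = 0.0976). Sp100, a protein of PML nuclear bodies, fell by 0.39 (adjusted p = 0.0148) and had an offset value of -0.56 (adjusted p = 0.000914). Its call without offsets was lost without cKO 1 or cKO 2 (adjusted p 0.0543 and 0.066). Ifi44, the lowest of the 39 per kilobase in cKO libraries, did not pass the test (-0.49, SE 0.27, adjusted p = 0.113) and was lower with offsets (-0.73, adjusted p = 0.0231). The offsets used the principal transcript. With the longest transcript the difference from genes of like length shrank from -0.50 to -0.16 for Ifi44 and from -0.42 to -0.12 for Sp100.

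Levels can be set beside each other between genes only per kilobase of transcript. This division leaves in the relation between fold change and transcript length described above, so shifts of the order between genotypes carry it. Genes of like length had a median log2 fold change of 1.78 for Ifitm3, 1.88 for Ifi27l2a, 1.72 for Bst2 and -1.40 for Parp14. In cWT libraries the 5 highest were Ifitm3 with 141 ± 9.69 CPM per kilobase (SD, n = 3), Bst2 with 97.7 ± 7.57, Ifitm2 with 82.7 ± 6.09, Lgals3bp with 80.8 ± 5.91 and Ifitm6 with 67.1 ± 0.612. Ifitm2 and Lgals3bp were within their spread of each other. In cKO libraries Ifitm3 (325 ± 28.7), Ifi27l2a (325 ± 46.2) and Bst2 (322 ± 45.7) could not be ordered within their spread, and Ifitm2 (231 ± 41.2) and Ifitm1 (199 ± 83.4) followed. Ifitm1 lay within its spread of Ifitm2 and of Ifitm6 (191 ± 23). In cWT libraries Ifi27l2a had stood at 38.5 ± 6.8 and Ifitm1 at 13.6 ± 2.4. Parp14 went from 11 ± 0.105 to 4.06 ± 0.0796. At the bottom of the order in cWT, Ifi44 (1.32 ± 0.289) and Oasl1 (1.35 ± 0.343) were within their spread of each other, and in cKO Ifi44 was lowest at 0.934 ± 0.0849.

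Within a genotype the genes were not high together in the same way in every library. In the cKO group, replicate 3 was the highest library for 22 of the 39 genes (37.9% of all tested genes) and replicate 2 for 5 (30.7%). All 4 IFITM genes went the other way and were lowest in cKO 3, where their summed level was 532 CPM against 713 and 786 CPM in cKO 1 and cKO 2. In the cWT group, replicate 1 was highest for 20 genes (38.1% of all tested genes) and replicate 3 for 4 (35.8%). The summed level of all 39 genes was 1313 to 1384 CPM in cWT and 2362 to 2396 CPM in cKO libraries, so the differing orders of single genes left the sums within each genotype close. All tested genes together summed to 856088 to 883629 and 1111671 to 1174246 CPM. The 13 genes with the shortest transcripts summed to 382 to 430 CPM in cWT and 1324 to 1489 CPM in cKO. Those of middle length summed to 382 to 408 and 552 to 693 CPM, and the 13 longest to 528 to 572 and 350 to 355 CPM.

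**Figure D4:**
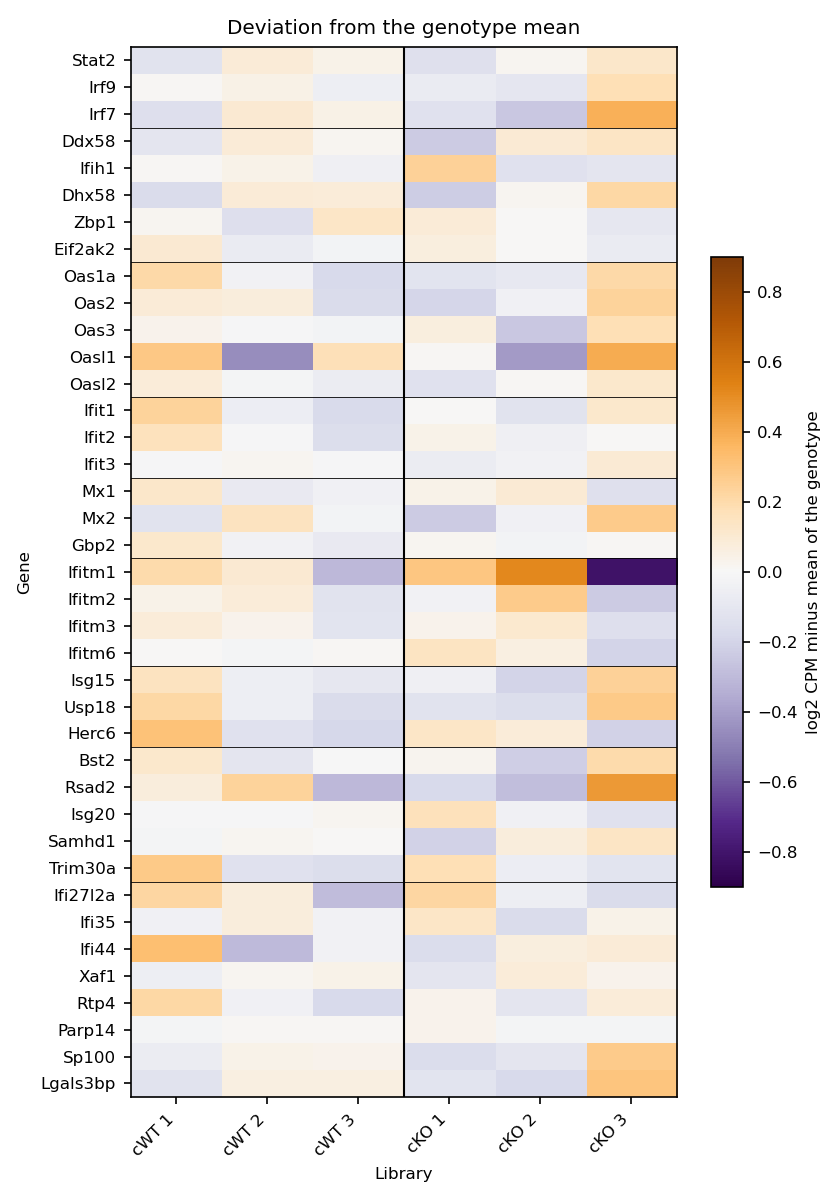
Deviation of each library's log2 CPM from the mean of its own genotype for the 39 interferon-stimulated genes, by role (colour scale in log2 units). In cKO 3 genes such as Irf7, Rsad2 and Isg15 lie above their genotype's mean while all 4 IFITM genes lie below it.

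Some of the genes have close relatives with which the authors' counting could share reads. Only Oas1a, Ifit3 and Trim30a had counts that were not whole, a sign of reads split between genes, and their values are uncertain to that extent. The 36 genes with whole counts included 20 that were higher and 11 that were lower, with a median of 0.37. Of the relatives, Oas1g rose by 1.69 (adjusted p = 1.87e-06) beside 1.59 for Oas1a, and Ifit3b rose by 1.16 (adjusted p = 1.99e-05) beside 1.15 for Ifit3. Trim30d fell by 1.49 (adjusted p = 1.06e-08), with an offset value of -2.18, beside -0.27 for Trim30a. Ifi27, a paralog of Ifi27l2a, rose by 2.15 (adjusted p = 1.29e-11; offset value 0.66).

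Outside the 39 genes, 41 genes that make, carry or damp the interferon signal were listed, of which 34 were tested. Without offsets 12 were higher and 15 lower, with a median log2 fold change of -0.10, and with offsets 6 were higher and 13 lower of the 33 that had a length. Beside these counts and those of the smaller lists below, 35.6% of all tested genes were higher and 36.5% lower. With offsets the shares of all genes fitted were 29.3% and 27.1%. The ligand gene Ifnb1, interferon-beta, had 0.319, 0.205 and 0.0506 CPM in cWT and 1.56, 1.42 and 1.44 CPM in cKO libraries. All cKO libraries were above all cWT libraries (2.90, SE 0.57, adjusted p = 0.000187), at a level too low for a fine comparison and with an offset value of 1.07 that did not pass the test (adjusted p = 0.133). Ifna1 was at 0 in every library.

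Of the receptor and its kinases, 1 of 4 rose and 3 fell without offsets. The subunits of the receptor itself moved apart. Ifnar2 rose from 162 ± 4.06 to 263 ± 24 CPM (0.70, adjusted p = 2.8e-06; offset value 0.80), and Ifnar1 fell from 134 ± 3.17 to 80.3 ± 4.4 CPM (-0.73, adjusted p = 9.27e-07; offset value -0.35). Tyk2 fell by 0.90 (adjusted p = 6.88e-07) but had an offset value of 0.07. Among 19 genes for the induction of interferon 6 rose and 9 fell. Tlr9, the endosomal receptor for unmethylated DNA, had 146, 166 and 177 CPM in cWT and 16, 15.4 and 25.5 CPM in cKO libraries. The groups were far apart with and without offsets (-3.09, SE 0.15, adjusted p = 1.25e-11; offset value -2.68). Traf3, an adaptor on the way to interferon induction, fell by 2.47 (offset value -1.11), and Irf3, the factor that starts interferon-beta transcription, rose by 1.02 (offset value 0.73). Of 7 regulators 2 rose and 2 fell, among them Ube2l6, the conjugating enzyme for Isg15 (1.01, offset value 0.14), and the ubiquitin ligase Trim25 (-1.29, offset value -0.34). Ptpn2 rose by 0.57 but was called lower with offsets (-0.48). Of the type II interferon receptor genes, Ifngr1 rose by 1.12 and Ifngr2 by 0.57, with offset values of 0.65 and 0.88. Jak2, listed with them, fell by 0.89 and had an offset value of -0.20 that was not called.

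**Figure D5:**
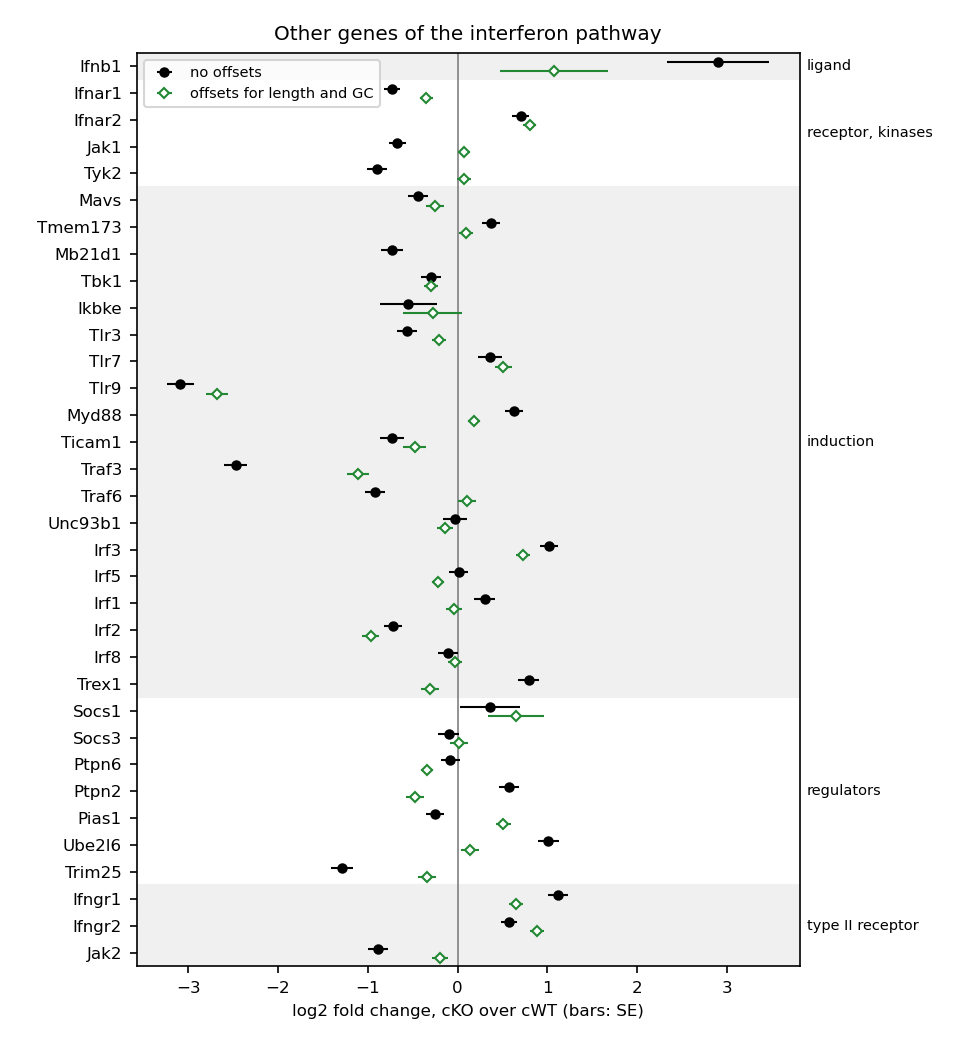
Log2 fold change (cKO over cWT, bars: SE) of the tested interferon pathway genes outside the 39, without offsets (filled) and with the offsets for length and GC content (open), by role. Tlr9 and Traf3 lie lowest in both fits, and Ifnar1 and Ifnar2 lie on opposite sides of 0 in both.

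The libraries held RNA of other cell types, and the summed CPM of some marker lists did not overlap between the genotypes. Summed CPM was also higher in cKO for all tested genes together (856088 to 883629 CPM in cWT and 1111671 to 1174246 CPM in cKO libraries). Beside the counts of called markers below, 35.6% of all tested genes were higher and 36.5% lower, and with offsets 29.3% and 27.1%. In bulk RNA, more cells of a type and more RNA per cell cannot be told apart. The 10 microglial markers (3 higher, 5 lower) summed to 35336 to 37565 CPM in cWT and 32878 to 37091 CPM in cKO libraries. With offsets 1 of them was higher and 6 were lower, with a median log2 fold change of -0.43. The 7 markers of choroid plexus and ependyma were all higher in cKO with and without offsets, and their sum was 2161 to 2440 CPM in cWT and 10445 to 14102 CPM in cKO libraries. Most of that sum was Ttr, with means of 2216 CPM in cWT and 12112 CPM in cKO libraries. Neutrophil markers (6 of 9 tested higher, 2 lower; with offsets 3 higher, 4 lower) summed to 4504 to 5032 and 11564 to 16079 CPM, and monocyte markers (6 of 10 higher, 3 lower; with offsets 3 higher, 5 lower) to 692 to 766 and 1382 to 1701 CPM. The larger part of the neutrophil sum was S100a8 (means of 1121 CPM in cWT and 4642 CPM in cKO) and S100a9 (1535 and 6197 CPM). Both had an offset value of -0.10 that was not called. Endothelial markers (3 of 10 higher, 6 lower) summed to 1548 to 1894 and 1986 to 2417 CPM. With offsets 1 was higher and 5 were lower, and Ly6c1 alone had means of 216 CPM in cWT and 837 CPM in cKO libraries. Markers of border-associated macrophages (5 of 8 higher, 1 lower) summed to 813 to 1024 and 796 to 983 CPM. With offsets 3 of these were higher and 3 lower. Sums for astrocytes (3 of 8 markers higher, none lower; 391 to 405 and 414 to 647 CPM), oligodendrocytes (6 of 8 higher, 1 lower; 284 to 292 and 311 to 466 CPM) and mural cells with fibroblasts (4 of 11 higher, 5 lower; 277 to 356 and 251 to 309 CPM) were smaller. With offsets 6 astrocyte markers were higher and none lower. For oligodendrocytes 6 were then higher and 1 lower, and for mural cells with fibroblasts 1 was higher and 3 lower. Sums for T and NK cells (1 of 6 tested higher, 1 lower; 37.3 to 43.6 and 56.9 to 60.6 CPM), B cells with plasmacytoid dendritic cells (1 of 2 tested higher; 19 to 21 and 40.2 to 50 CPM) and neurons (2 of 3 tested higher; 13.9 to 16.8 and 20.2 to 27.6 CPM) were the lowest. With offsets the only calls among these were 3 lower markers of T and NK cells and 1 higher marker of neurons. No listed marker in the table was at 0 in every library. Within the cKO group, the sums for choroid plexus, neutrophils, monocytes, border-associated macrophages, T and NK cells and neurons were each lowest in cKO 3. The 4 IFITM genes were lowest there too. Sums of the other lists were lowest in cKO 1 or cKO 2. The neutrophil and monocyte sums were highest in cKO 1 (16079 and 1701 CPM), whereas the IFITM sum was highest in cKO 2 (786 CPM). The part of these cells in the values of the interferon-stimulated genes was not tested.

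Of 5 genes listed because they differ between inbred mouse strains, 2 had no counts in one of the genotypes. Ifi202b, an interferon-inducible gene of the Ifi200 cluster, had a count of 0 in all 3 cWT libraries and 32, 30.8 and 16.5 CPM in cKO libraries, at least 171-fold higher in cKO against a floor of 3 counts per library. Hbb-bs, a beta-globin allele, had 23.9, 23.4 and 6.22 CPM in cWT and 0 in all cKO libraries, at least 68.2-fold lower in cKO by the same floor. Its counts were not whole, a sign of reads split between genes, and its log2 fold change had an SE of 2.26. The other listed genes had counts in both genotypes. Hbb-b1 was higher in cKO (1.14, adjusted p = 0.00628 in edgeR). Hbb-bt and Hbb-b2, with identical counts in every library, were not called (0.35, adjusted p = 0.501). The labels give C57BL/6J for every library. Differences in strain background and the loss of Mir137 cannot be told apart for the genes described here.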

How the data were processed

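Microglial RNA was sequenced from 3 cKO and 3 cWT libraries. The submitters' processing notes name STAR 2.7.9a, RSEM, DESeq2, GRCm38 and mm10; neither the annotation counted nor the use of strand is stated in the sources used here. The authors deposited expected counts per gene that were not normalized, with 5.5 to 5.85% of values not whole, and these were rounded. The authors' deposited comparison table holds a base mean (a normalised count signal), log2 fold changes with their errors, a test score, p-values and adjusted p-values, and was used only where named.

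Counts were tested in R 4.3.3 with edgeR 4.0.16 (robust quasi-likelihood F test, two-sided, genotype only, TMM scaling, filterByExpr with a minimum count of 10, Benjamini-Hochberg adjustment over 13490 genes, called at an adjusted p under 0.05), and 3969 genes were set aside as low. The fit was tested on simulated data. CPM values use TMM-scaled library sizes, and SDs are over 3 libraries. The SE of an edgeR log2 fold change is its absolute value divided by the square root of the F statistic, and not a separate estimate. Precision is lowest for genes of few CPM. Transcript lengths are those of the principal GENCODE M21 transcript, promoters are RefSeq windows of GRCm38.p6, and coordinates are on GRCm38. Offsets were loess fits (span 0.3) of each library's log2 CPM deviation (prior count 2) on log2 transcript length and then on GC content. DESeq2 1.42.0, other scalings and filters, the replicate block and leaving out each library were alternatives.

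Genes given with values in every library were, of the called members whose log2 CPM averaged 2 or more, the 8 that rose most and the 5 that fell most, the 5 most abundant, and called genes more than 1 (log2) from genes of like length. Of pathway and related genes, up to 3 with the smallest p per list and any gene that could share reads were named; 1 listed item is not reported here and was left out of the pathway list and its counts. The 39 genes, the lists and the tests were chosen with earlier results of these data known. Within each genotype the libraries differed beyond sampling noise (chi-square per degree of freedom 3.84 to 19.3), so none was treated as a duplicate.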

Additional observations from a re-analysis of the deposited data

How the results depend on the processing

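DESeq2 (22 higher, 11 lower), RLE scaling (23 and 11), no filter on low counts (21 and 12), a filter of 5 CPM in 3 libraries (22 and 11 of the 37 genes left) and leaving out each library in turn (20 to 23 and 9 to 12) gave counts of called genes close to the 22 and 11 reported, and no gene of the 39 changed direction under them. The median log2 fold change of the 39 genes ran from 0.33 to 0.49 when 1 library was left out, lowest without cKO 3 and highest without cKO 2. Calls lost without 1 library were those of Oas3, Oasl2, Gbp2, Herc6 and Sp100, and calls gained were those of Dhx58 and Trim30a. With library size alone the median was -0.01 (all tested genes -0.42), the other pathway genes called higher numbered 7 in place of 12, and Dhx58 (-0.09), Oasl2 (-0.04), Mx2 (-0.12), Gbp2 (-0.08) and Lgals3bp (-0.01) changed sign. With the offsets for length and GC content the median was 0.14, pathway genes called higher numbered 6, and Stat2 (0.02), Oas3 (0.34), Ifit2 (0.07), Mx1 (0.00), Ifitm2 (-0.27), Ifitm3 (-0.56), Ifitm6 (-0.44) and Herc6 (0.04) changed sign. The median difference from genes of like length was 0.14 with 200 neighbours and 0.12 with 1000, and 0.00 with the longest annotated transcript (added after seeing the data). Beyond what their construction changes, the cause was not tested.

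Same-numbered libraries of the 2 genotypes correlated by 0.099, 0.034 and 0.088 in their deviations from the group means, so the numbers were not taken to pair the libraries, although each library correlated best with its own number. With the replicate number as a block, 23 of the 39 genes were higher and 12 lower with a median of 0.37, and Dhx58 (0.30, adjusted p = 0.0372) and Trim30a (-0.26, adjusted p = 0.00546) were called in addition (edgeR). Genes of few CPM, such as Oasl1, Ifi44 and Rsad2, carry the widest errors apart from Ifitm1, and with 3 libraries per genotype an exact permutation test of a single gene could not go below 0.1.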
